A study of Mus musculus with 6 samples.

Results

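The 36 Hox genes measured in mouse sciatic nerve are described here, out of 22180 genes with a value in the series. They were taken as every gene symbol made of Hox, a cluster letter from a to d and a number, with a probe set annotated to that symbol alone, and a gene with several such probe sets was represented by the brightest. Other mouse Hox genes were not analysed here. The members comprised 9 genes of the Hoxa cluster (chromosome 6), 10 of Hoxb (chromosome 11), 9 of Hoxc (chromosome 15) and 8 of Hoxd (chromosome 2).

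Whole sciatic nerves of 10-month-old Srebf-1c KO mice (3 arrays) and of wild-type littermates (3 arrays) were each hybridised to a whole-transcript Affymetrix array. Srebf-1c is the form of Srebf1 known for driving genes of fatty acid synthesis. The labels give no strain, sex or description of the deletion, and do not say whether each array stands for a different mouse, so p-values here rest on spread among arrays that could be technical in part. For the KO arrays the source field says wild type, whereas their titles and genotype field say KO and were followed. Srebf1 itself stood at 8.11, 8.06 and 8.04 log2 intensity on the KO arrays, against 9.53, 9.55 and 9.70 on the wild-type arrays. Whether these probes read the deleted sequence is not given in the labels, so this check of the labels is limited.

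Hox genes encode homeodomain transcription factors and lie in 4 clusters. Genes with low paralogue numbers lie at the 3′ end of a cluster and are active from the head end of the embryo backwards, whereas genes with high numbers lie at the 5′ end and are active in the tail end and, in the limb, towards the digits. Hox10 genes are known for patterning the upper segment of the limb and the lumbar region, Hox11 genes the lower segment of the limb, and Hox13 genes the hand and foot. Connective tissue, fat and other mesenchymal cells of adults keep Hox transcription that reflects their place in the body.

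The sequences that the results below refer to are given here. Of the 36 genes, 20 matched a promoter entry of RefSeq (build GRCm38.p6), with 22 entries in all because Hoxa10 and Hoxd11 have several starts. Shown are the 250 bases before the start of Hoxb4, the gene with the smallest p in the genotype comparison, of Hoxd8, Hoxd10 and Hoxd13, which span the bright and the dim end of the Hoxd cluster, and of Hoxa9, which holds the only match to a sterol regulatory element, the sequence SREBP proteins bind. Capitals mark matches, on either strand, to any of 6 motifs. The core promoter motifs are the box with the letters TATAAA and the box with the letters CCAAT. The sterol regulatory element was searched as TCACNCCAC. The motif of basic helix-loop-helix proteins, the E-box, was searched as CACGTG. The joint site of PBX and HOX proteins was searched as TGATNNAT, and the short site of nuclear receptors such as retinoic acid receptors as AGGTCA. Matches to different motifs may overlap.
Hoxb4 (chr11:96318017-96318266, plus strand): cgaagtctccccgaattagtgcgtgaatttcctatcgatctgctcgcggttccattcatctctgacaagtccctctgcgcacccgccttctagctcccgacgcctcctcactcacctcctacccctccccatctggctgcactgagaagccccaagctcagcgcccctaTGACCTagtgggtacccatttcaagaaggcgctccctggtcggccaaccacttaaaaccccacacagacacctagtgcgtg
Hoxd8 (chr2:74704365-74704614, plus strand): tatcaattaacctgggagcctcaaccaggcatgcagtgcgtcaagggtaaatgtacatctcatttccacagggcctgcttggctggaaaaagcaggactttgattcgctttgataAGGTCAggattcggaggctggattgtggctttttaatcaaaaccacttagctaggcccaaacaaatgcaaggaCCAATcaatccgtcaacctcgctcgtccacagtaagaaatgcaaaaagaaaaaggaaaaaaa
Hoxd10 (chr2:74691641-74691890, plus strand): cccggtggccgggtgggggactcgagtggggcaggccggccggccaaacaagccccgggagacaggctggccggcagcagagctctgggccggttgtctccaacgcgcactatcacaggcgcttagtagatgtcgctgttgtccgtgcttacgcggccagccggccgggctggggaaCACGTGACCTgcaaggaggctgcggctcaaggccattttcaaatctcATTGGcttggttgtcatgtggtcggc
Hoxd13 (chr2:74667975-74668224, plus strand): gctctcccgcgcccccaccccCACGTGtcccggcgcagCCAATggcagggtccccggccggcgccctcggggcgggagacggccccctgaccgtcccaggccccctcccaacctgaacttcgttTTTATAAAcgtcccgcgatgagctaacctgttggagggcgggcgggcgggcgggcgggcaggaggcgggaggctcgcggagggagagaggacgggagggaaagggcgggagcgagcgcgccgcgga
Hoxa9 (chr6:52227371-52227620, minus strand): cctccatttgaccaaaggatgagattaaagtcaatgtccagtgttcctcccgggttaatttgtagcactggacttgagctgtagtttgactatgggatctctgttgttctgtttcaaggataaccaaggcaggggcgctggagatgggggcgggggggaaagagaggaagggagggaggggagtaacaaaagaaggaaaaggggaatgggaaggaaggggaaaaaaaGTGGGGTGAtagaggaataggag

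These motifs were counted in the same 250-base windows of 32851 promoters. TCACNCCAC was found in 1 of 22 Hox windows (4.55%), against 1.05% of all windows. CCAAT was found in 13 of 22 Hox windows (59.1%), against 33.8% of all windows, and AGGTCA in 5 (22.7%), against 14% of all. TATAAA was present in 3 Hox windows (13.6%), against 12.4% of all. CACGTG and TGATNNAT were each present in 4 (18.2%), against 6.02% and 7.68% of all. The Hox windows were rich in CpG, with a median of 12.5 CpG dinucleotides, against 6 over all windows, and a median GC content of 59.2%, against 52.4%. A match is a description of the letters and not evidence of binding.

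The Hox clusters also hold microRNA genes, some of which are known to restrain Hox messages. The 5p arms of miR-10a and miR-10b share a seed, as do those of miR-196a and miR-196b, and miR-615-3p has another. Capitals mark the seed, bases 2 to 8 (RefSeq, GRCm38.p6). Mature miR-196a-5p is made from both Mir196a-1 and Mir196a-2, and its place at Mir196a-1 is given.
miR-10a-5p (chr11:96317186-96317208, plus strand): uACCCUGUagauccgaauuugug
miR-10b-5p (chr2:74726074-74726096, plus strand): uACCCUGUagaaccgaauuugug
miR-196a-5p (chr11:96265187-96265208, plus strand): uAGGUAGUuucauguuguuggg
miR-196b-5p (chr6:52230129-52230150, minus strand): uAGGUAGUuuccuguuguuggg
miR-615-3p (chr15:103014969-103014990, plus strand): uCCGAGCCugggucucccucuu

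Most Hox genes of the middle of the clusters, with paralogue numbers from 4 to 10, gave a signal above background in the nerve, while none of the measured genes numbered 11 to 13 did so on every array. A level was called above background on an array when it exceeded the 95th percentile of 1088 olfactory receptor genes there, which lay between 6.54 and 6.70 log2 intensity. By this measure 20 of 36 Hox genes (55.6%) were above background on all 6 arrays, against 56.6% of all genes, 8 were above it on some arrays and 8 on none. Of the 21 genes with paralogue numbers 4 to 10, 18 were above background on every array. Of the 8 genes numbered 11 to 13, 0 were, and 5 of these were at background on every array. The count of 20 became 20 or 21 when any array was left out, but it was 6 with the 99th percentile of the olfactory receptor genes as the limit. Intensities of different probe sets also differ by how well the probes bind, so an order of genes by intensity is not an order of transcript amounts.

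**Figure D1:**
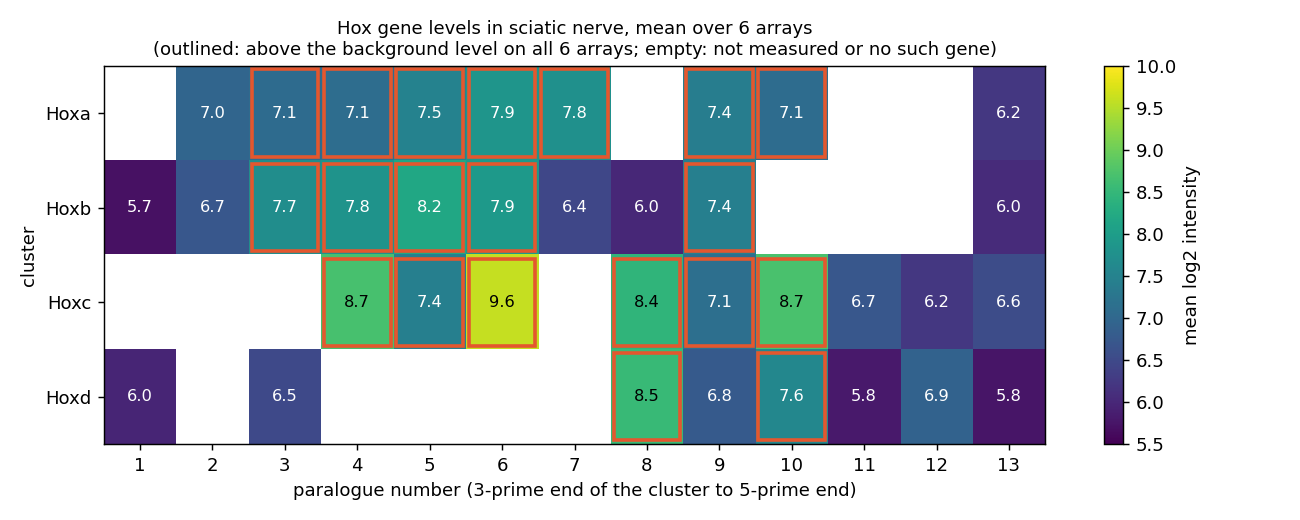
Mean log2 intensity over the 6 arrays of each Hox gene, by cluster (rows) and paralogue number (columns), as colour and number. Outlined cells were above the background level on all 6 arrays: they fill the columns from 3 to 10 with few gaps, and 0 of the 8 cells in columns 11 to 13 is outlined.

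The 3 brightest Hox genes by probe intensity were in the Hoxc cluster. Hoxc6, known for its part in the thorax and at the level of the forelimb, had 9.34, 9.88 and 9.50 log2 intensity on the KO arrays, against 9.52, 9.77 and 9.64 on the wild-type arrays, and stood at the 84.3rd percentile of all genes. Its genotype groups overlapped and all 6 values were alike within 0.54. Hoxc10, a gene of the lumbar region and the hindlimb, had 8.90, 8.49 and 8.37 on the KO arrays, against 9.45, 8.46 and 8.57 on the wild-type arrays (70.4th percentile). Its highest value was that of wild-type replicate 1, which stood apart from the other wild-type arrays. Hoxc4 had 8.71, 8.84 and 8.69 on the KO arrays, against 8.82, 8.83 and 8.29 on the wild-type arrays, and Hoxc8, known in motor neurons of the forelimb level, had 8.34, 8.90 and 8.15 on the KO arrays, against 8.30, 8.42 and 8.56 on the wild-type arrays. In both genes the groups overlapped, with wild-type replicate 3 lowest for Hoxc4 and KO replicate 2 highest for Hoxc8.

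Levels were lower along the rest of the Hoxc cluster. Hoxc5 and Hoxc9 were above background on every array, with means over the 6 arrays of 7.44 and 7.14, while Hoxc11 was above it on 4 arrays and Hoxc13 on 3. Hoxc12, which lies between these, was above it on 0 arrays and was the steadiest member, with all 6 values within 0.19. The long non-coding RNA Hotair, transcribed from within the Hoxc cluster and known for binding Polycomb complexes in human cells, had 6.32, 6.94 and 7.12 on the KO arrays, against 6.87, 6.92 and 7.14 on the wild-type arrays, and was above background on 5 arrays.

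In the Hoxd cluster 2 of 8 genes were above background on every array. Hoxd8 had 8.54, 8.32 and 8.32 log2 intensity on the KO arrays, against 8.87, 8.43 and 8.73 on the wild-type arrays. Hoxd10, a partner of Hoxc10 in lumbar motor neurons, had 7.38, 7.58 and 7.31 on the KO arrays, against 8.23, 7.20 and 7.84 on the wild-type arrays. Like Hoxc10 it was highest on wild-type replicate 1, and its wild-type values spread over a range that took in all 3 KO values. Hoxd9 and Hoxd12 were above background on 5 arrays each and Hoxd3 on 2, while Hoxd1, Hoxd11 and Hoxd13 were above it on 0 arrays. The window before the start of Hoxd13 shown above holds 31 CpG dinucleotides and that of Hoxd8 holds 6. That of Hoxd10 holds 20, and the windows of the dim Hoxd11 hold 2 and 20. The CpG count thus did not follow the level among these genes.

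The Hoxa and Hoxb clusters had their brightest genes at paralogue numbers 4 to 7. In Hoxb, Hoxb5 had 8.11, 8.31 and 7.95 on the KO arrays, against 8.30, 8.55 and 7.89 on the wild-type arrays, and Hoxb6 had 7.80, 7.95 and 7.76 on the KO arrays, against 7.88, 8.21 and 7.97 on the wild-type arrays. Hoxb3 had 7.66, 7.72 and 7.62 on the KO arrays, against 7.64, 8.06 and 7.57 on the wild-type arrays. Wild-type replicate 2 was the highest array for all 3 genes. Hoxb5 was the only member with another probe set of its own, which was dimmer (mean 6.96) and gave a log2 fold change of 0.026 ± 0.17 (SE), against -0.12 ± 0.19 for the brighter probe set. Hoxb9 was above background on every array (mean 7.45), Hoxb2, a gene of the hindbrain, on 4 and Hoxb7 on 1, and Hoxb1, Hoxb8 and Hoxb13 on 0.

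In Hoxa, 7 of 9 genes were above background on every array. Hoxa6 had 7.72, 7.88 and 7.81 on the KO arrays, against 7.80, 7.90 and 7.98 on the wild-type arrays, and Hoxa7 had 7.80, 7.73 and 7.71 on the KO arrays, against 7.92, 7.51 and 7.84 on the wild-type arrays. Over the 6 arrays Hoxa6 ranged by 0.26 and Hoxa7 by 0.42, and the groups overlapped in both. Hoxa5, a gene known for its part in the lung and in fat, had 7.18, 7.78 and 7.03 on the KO arrays, against 7.24, 7.88 and 7.87 on the wild-type arrays, so that KO replicate 2 stood with wild-type replicates 2 and 3, above the other 3 arrays. Hoxa3, Hoxa4, Hoxa9 and Hoxa10 were dimmer, with means from 7.08 to 7.41, and remained above background on every array. Hoxa2 was above it on 5 arrays and Hoxa13 on 0. When all 36 genes were put in the order of their mean, each of the 35 pairs of neighbours in that order overlapped in their ranges over the 6 arrays. Neighbours in such an order have close means, so this overlap says nothing of genes further apart in it.

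**Figure D2:**
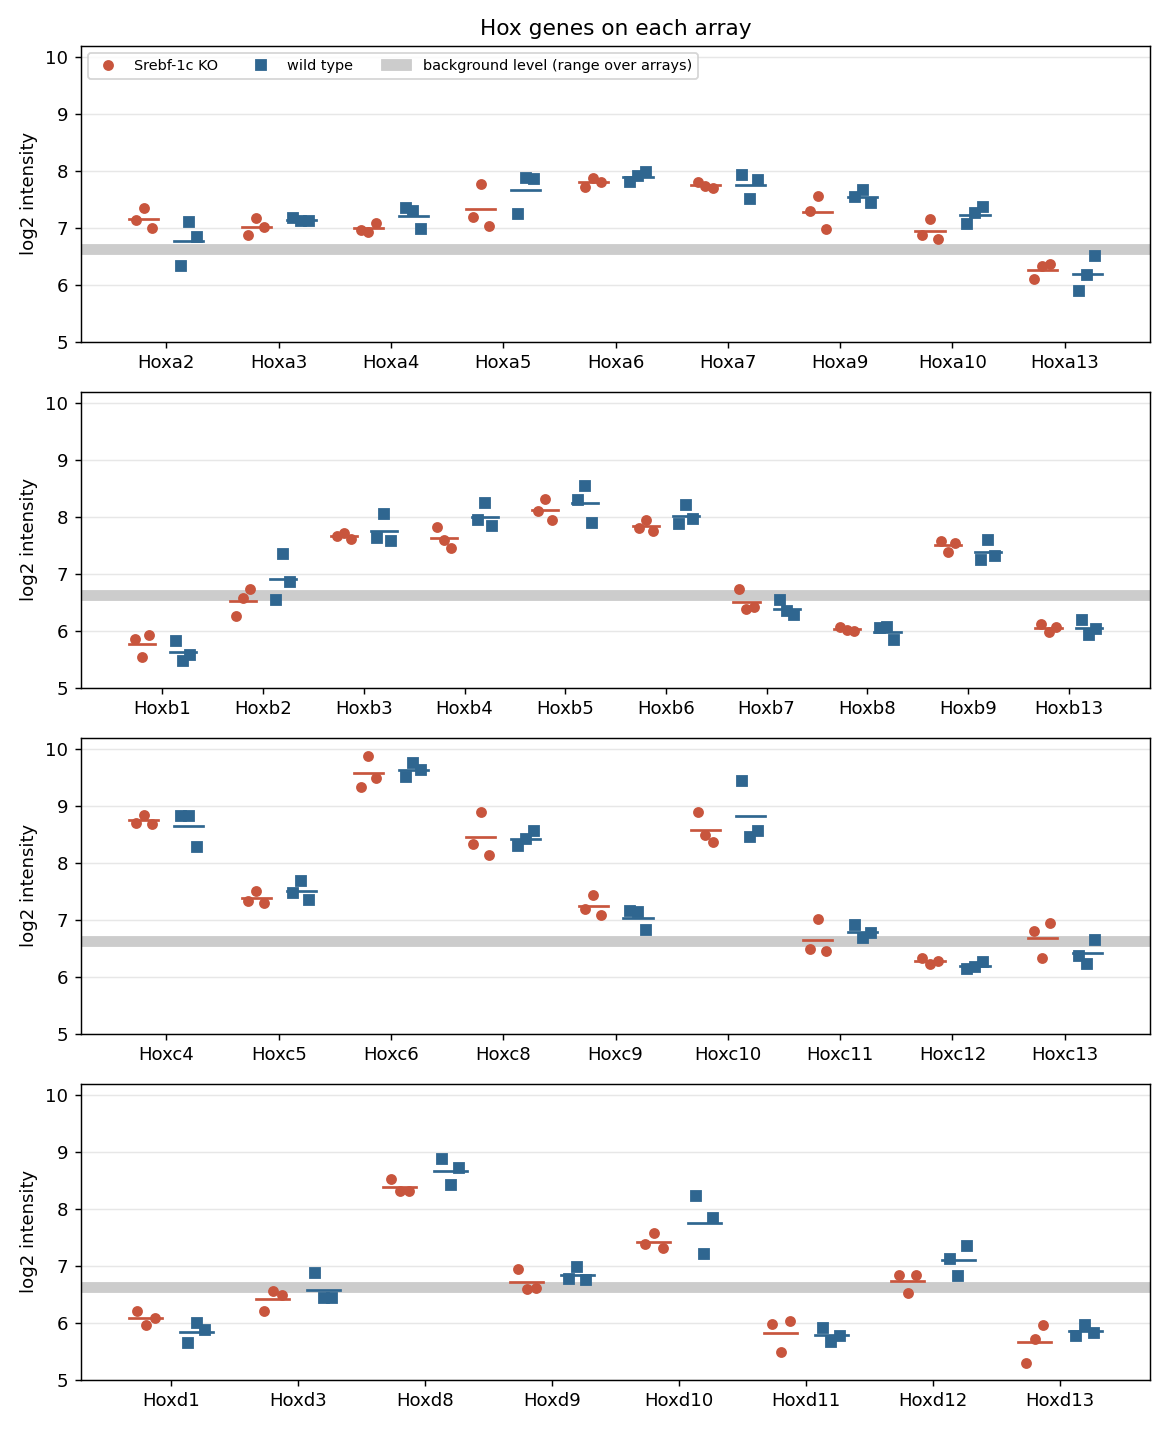
Log2 intensity of each Hox gene on each array, by cluster. Circles are the 3 Srebf-1c KO arrays, squares the 3 wild-type arrays, short lines the group means, and the grey band the range over arrays of the background level (6.54 to 6.70). Hoxb4 is the only gene whose 3 KO values lie all below its wild-type values.

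Markers of hindlimb identity other than Hox genes were dim. Pitx1, known for specifying the hindlimb in the embryo, had 6.68, 6.58 and 6.50 log2 intensity on the KO arrays, against 6.54, 6.41 and 6.55 on the wild-type arrays, and was above background on 2 arrays. Tbx4, its partner in the hindlimb bud, had 6.87, 6.60 and 7.15 on the KO arrays, against 6.48, 6.66 and 6.91 on the wild-type arrays, and was above background on 5. Tbx5, the gene of the forelimb bud, had 5.98, 5.99 and 5.26 on the KO arrays, against 6.04, 5.61 and 5.80 on the wild-type arrays, and was above background on 0. The 3 Hox10 genes were above background on every array, whereas Pitx1 and Tbx4 were not. Hox10 genes are known for the upper segment of the limb in general and for the lumbar region. Of the 3, Hoxc10 is the one described above as a gene of the hindlimb, so these markers bear out a hindlimb label only in part. Isl1, also of the limb identity list and named after its values were seen, was above background on 0 arrays. None of the measured Hox11, Hox12 and Hox13 genes was above background on every array, and the reason was not tested. With the 99th percentile of the olfactory receptor genes as the limit, Hoxc10 alone of the 3 Hox10 genes was above background on every array.

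Signs of the tissue itself were present. The Schwann cell genes Mbp and Pmp22, of myelin, stood at the 99.8th and 99.9th percentile of all genes, and Sox10, a Schwann cell transcription factor, at the 96.7th. Genes of neighbouring tissue varied between arrays. A score was taken as the mean over a marker list of each gene's log2 intensity minus its mean over the 6 arrays. The adipocyte score, over 7 measured genes of 8 listed, was -1.12, 1.67 and -1.09 in KO and -0.95, -0.34 and 1.83 in wild type. The skeletal muscle score, over 10 of 10 genes, was 0.63, -0.41 and 0.0076 in KO and 0.73, -0.77 and -0.18 in wild type. The fibroblast score over 6 genes ran from -0.28 to 0.25 in KO and from -0.25 to 0.078 in wild type. In whole nerve, fewer cells of a type and less RNA per cell cannot be told apart. Fat, muscle and connective tissue of the hindlimb also transcribe Hox genes, and which cells the Hox signal came from was not tested.

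The question of the study's design is how the nerve transcriptome of Srebf-1c KO mice differs from that of wild-type littermates. Of the 36 Hox genes, 0 passed an adjusted p of 0.05 in limma (smallest adjusted p = 0.850), where 1 of 22180 genes did (0.00451%). That gene was Srebf1, with a log2 fold change of -1.52 ± 0.11 (SE) and an adjusted p = 0.0497 in limma, which was 0.255 to 0.764 with any array left out. At an unadjusted p under 0.05 there was 1 Hox gene (2.78%), against 5.83% of all genes. With the methods' ANOVA there were 0, against 6.37% of all genes. The study's own limits, a 1.5-fold difference together with an unadjusted p below 0.05, were passed by 0 Hox genes, against 1.19% of all genes. Every Hox gene had a log2 fold change between -0.39, that of Hoxb2, and 0.40, that of Hoxa2. With all 6 arrays the shares of called Hox genes were not above those of all genes. At an unadjusted p under 0.05 this changed with some arrays left out, as given below.

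The precision of the arrays bounds what could be seen. For the 20 Hox genes above background on every array, the 95% intervals of the log2 fold changes ran from -0.93 at the lowest to 0.56 at the highest, so a 2-fold difference in intensity lay outside the interval of each of these genes taken singly. A 1.5-fold difference lay outside it for 13 of the 20 and within it for the other 7, in the direction of a lower level in KO. The intervals of the other 16 genes are of signals at or near background and do not bound a difference in transcript. The median residual SD of the Hox genes within genotypes was 0.195 on the log2 scale, the same as the 0.195 of all genes. Over the 6 arrays the Hox genes ranged by 0.19 to 1.09, with a median of 0.55.

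**Figure D3:**
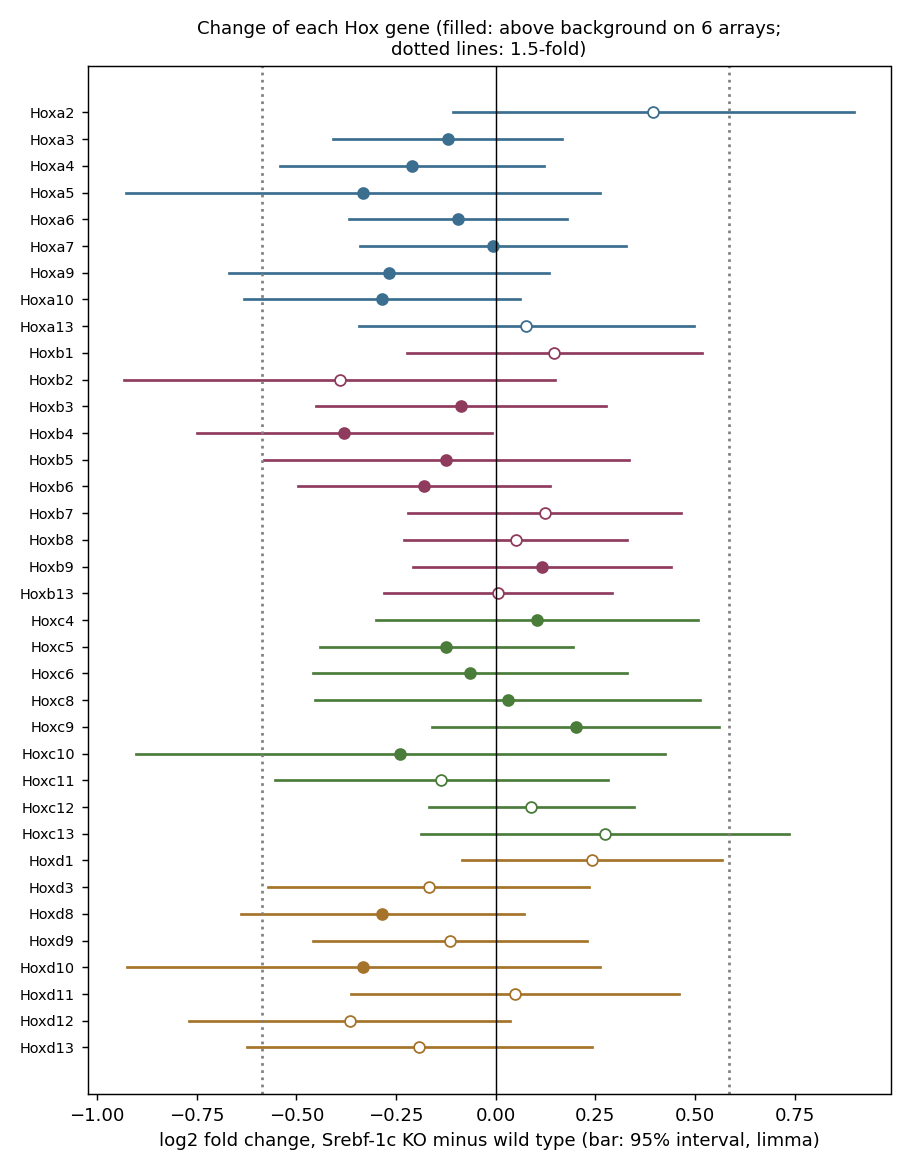
Log2 fold change of each Hox gene, Srebf-1c KO minus wild type, with its 95% interval from limma. Colours mark the cluster, filled points genes above background on all 6 arrays, and dotted lines a 1.5-fold change. Only the interval of Hoxb4 (-0.75 to -0.0087) leaves out 0, and the intervals of 13 of the 20 filled points stay between the dotted lines.

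Hoxb4, a gene of the hindbrain and neck known also for its part in blood stem cells, had the smallest p. It had 7.83, 7.60 and 7.46 log2 intensity on the KO arrays, against 7.94, 8.24 and 7.84 on the wild-type arrays. All 3 KO values lay below all 3 wild-type values, though KO replicate 1 and wild-type replicate 3 lay close together. Its log2 fold change was -0.38 ± 0.16 (SE), or 0.769 of the wild-type level (limma unadjusted p = 0.0461, adjusted p = 0.850). It was the only Hox gene without overlap of the groups (2.78% of Hox genes), where 12.3% of all genes had none. The 95% interval of its fold change reached to -0.0087. Its unadjusted p was not under 0.05 with the replicate block, the methods' ANOVA, quantile normalization or arrays at 1 median, nor without wild-type replicate 1 or 2 or KO replicate 2 or 3.

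The next genes by p overlapped between the groups. Hoxd12 had 6.83, 6.53 and 6.84 log2 intensity on the KO arrays, against 7.12, 6.83 and 7.36 on the wild-type arrays, with a log2 fold change of -0.37 ± 0.17 (SE), near the background level. Hoxa10, a patterning gene of the limb and the uterus, had 6.88, 7.16 and 6.80 on the KO arrays, against 7.07, 7.26 and 7.37 on the wild-type arrays (-0.29 ± 0.15). Hoxd8, with the values given above, stood at -0.28 ± 0.15. Of these 3 genes, each had KO values that overlapped the wild-type values through 1 or 2 KO arrays. Hoxa2, a gene of the hindbrain and the second pharyngeal arch, had 7.14, 7.34 and 6.99 on the KO arrays, against 6.33, 7.11 and 6.85 on the wild-type arrays (0.40 ± 0.21). Hoxd1, known in pain-sensing neurons, had 6.20, 5.96 and 6.08 on the KO arrays, against 5.65, 6.00 and 5.88 on the wild-type arrays (0.24 ± 0.14). It was below background on every array. Adjusted p-values of these 5 genes lay between 0.867 and 0.875 in limma.

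As a group, 22 of 36 Hox genes (61.1%) had a lower mean in KO, against 56.9% of all genes, and the median log2 fold change was -0.10, against -0.032 over all genes. By cluster the median was -0.12 in Hoxa (7 of 9 genes with a lower mean), -0.041 in Hoxb (5 of 10), 0.031 in Hoxc (4 of 9) and -0.18 in Hoxd (6 of 8). All 3 Hox10 genes had a lower mean in KO: Hoxa10 at -0.29, Hoxc10 at -0.24 ± 0.28 (SE) and Hoxd10 at -0.33 ± 0.25. This was not particular to Hox10, as all 3 measured genes of paralogue number 3, of number 5 and of number 6 also had a lower mean. Without wild-type replicate 1 the value of Hoxc10 was 0.070 and that of Hoxd10 -0.097, and without wild-type replicate 2 that of Hoxd10 was -0.61. Genes numbered 11 to 13, which were near background, had a median of 0.027 and 3 of 8 with a lower mean. Leaving out KO replicate 1, 2 or 3 gave Hox medians of -0.050, -0.18 and -0.056, and leaving out wild-type replicate 1, 2 or 3 gave -0.086, -0.049 and -0.14. The Hox median was -0.041 after quantile normalization, against -0.0056 over all genes, and 22 of 36 genes were lower. With arrays at 1 median it was -0.073, against -0.0010 over all genes, and 21 were lower.

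Of the 20 Hox genes above background on every array, 16 (80%) had a lower mean in KO, against 62.1% of the 12560 genes of any kind above it on every array. Of the other 16 Hox genes, 6 had a lower mean in KO and 10 a higher mean. The mean over the 20 genes above background of the log2 intensity minus each gene's mean was -0.079, 0.055 and -0.18 on the KO arrays, and 0.096, 0.11 and -0.0037 on the wild-type arrays. KO replicate 2 lay among the wild-type arrays, and KO replicate 3 was lowest. KO replicate 2 was also the KO array with the high adipocyte score (1.67). Among the wild-type arrays, replicate 3 had the highest adipocyte score (1.83) and the lowest value of the 20 Hox genes (-0.0037). Wild-type replicate 2 had the highest value of these genes (0.11) with an adipocyte score of -0.34. The part of fat in these values was not tested. Leaving out KO replicate 2 gave 4 of 36 Hox genes with an unadjusted p under 0.05, a larger share than the 6.79% of all genes. They were Hoxa5, Hoxa9, Hoxa10 and Hoxc13. The count of all genes passing the study's own limits was then 552, against 265 with every array. Without wild-type replicate 2 there were also 4, namely Hoxa2, Hoxd8, Hoxd10 and Hoxd12, again a larger share than the 5.9% of all genes. The genes at the threshold thus depended on the array left out. Without wild-type replicate 3 there were 2 of 36, Hoxa4 and Hoxb4, against 7.19% of all genes. Without KO replicate 3 there were 0, against 2.82% of all genes. These names were chosen after the values were seen.

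The level of Hoxa5 divided the arrays in the same way as several marker scores, a comparison picked after the values were seen. The 3 high Hoxa5 values were those of KO replicate 2 and of wild-type replicates 2 and 3, the arrays with adipocyte scores of 1.67, -0.34 and 1.83, and the 3 low values were of KO replicates 1 and 3 and wild-type replicate 1, with scores of -1.12, -1.09 and -0.95. All 7 adipocyte markers were above background on every array: Adipoq, the adiponectin gene, had 6.99, 10.05 and 7.09 on the KO arrays, against 7.09, 7.71 and 9.98 on the wild-type arrays. The mural score was 0.38, 0.46 and 0.56 on the 3 arrays with high Hoxa5 and -0.081, -0.86 and -0.46 on the 3 with low Hoxa5. The perineurial score was 0.13, 0.27 and 0.11 on the high arrays and -0.31, 0.024 and -0.21 on the low arrays. The endothelial score was also higher on each array with high Hoxa5, and the skeletal muscle score lower. The fibroblast and macrophage scores did not divide the arrays in this way. The part of any of these cell types in the level of Hoxa5 was not tested. Hoxc10 and Hoxd10 were highest on wild-type replicate 1, the array with the highest skeletal muscle score (0.73) and the highest neuron score. The neuron score, over 6 genes, was -0.48, 0.29 and 0.33 in KO and 0.74, -0.34 and -0.54 in wild type. The part of muscle or neuron RNA in these values was not tested. Hoxa9, whose promoter window holds the match to a sterol regulatory element shown above, had 7.29, 7.56 and 6.98 on the KO arrays, against 7.54, 7.66 and 7.43 on the wild-type arrays. Its groups overlapped, with a log2 fold change of -0.27 ± 0.17 (SE) and an adjusted p = 0.887 in limma.

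Hox proteins bind DNA together with cofactors of the PBX, MEIS and PKNOX families, which hold them at their sites. Of 8 cofactor genes measured, 0 passed the adjusted test in limma, 2 had an unadjusted p under 0.05, both with a lower mean in KO (3.49% of all genes), and 7 had a lower mean, against 56.9% of all genes. With any array left out the count at an unadjusted p under 0.05 was 0 or 1. Pknox1, a partner of PBX proteins, had 8.05, 7.91 and 7.88 log2 intensity on the KO arrays, against 8.32, 8.40 and 8.19 on the wild-type arrays. All its KO values lay below its wild-type values, as in 8.21% of all genes, and the log2 fold change was -0.36 ± 0.12 (SE). The same held for the KO values of Pbx3, which was named after its values were seen. Pbx2 had 7.09, 7.54 and 6.97 on the KO arrays, against 7.70, 7.54 and 7.63 on the wild-type arrays (-0.42 ± 0.17), with KO replicate 2 within the wild-type range. Pknox1 and Pbx2 both had an adjusted p = 0.850 in limma. Without KO replicate 1 the count with a lower mean was 4 of 8.

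Retinoic acid is known for switching on Hox clusters from their 3′ end. In a list of its receptors, enzymes and binding proteins and of other axial inducers, 16 of 22 measured genes had a lower mean in KO, against 56.9% of all genes, and the median log2 fold change was -0.24, against -0.032 over all genes. The median was -0.20 after quantile normalization, against -0.0056 over all genes, and -0.21 with arrays at 1 median, against -0.0010. The count of lower means was 15 to 18 with each array left out. Without wild-type replicate 1 the median was -0.15. Of the list, 0 genes passed the adjusted test in limma, and 3 had an unadjusted p under 0.05, all with a lower mean in KO (3.49% of all genes), a count that was 0 to 4 with an array left out. The retinoic acid receptor gene Rarg had 8.17, 8.24 and 8.17 on the KO arrays, against 8.46, 8.60 and 8.45 on the wild-type arrays, with a log2 fold change of -0.31 ± 0.11 (SE). All its KO values lay below its wild-type values, as in 4 of the 22 genes and in 8.21% of all genes. Cyp26c1, an enzyme that degrades retinoic acid, was below background on every array, with a log2 fold change of -0.35 ± 0.14. Rara, another receptor, was the third gene, at -0.32 ± 0.13, and was named after its values were seen. None of the 3 had an adjusted p under 0.850. With arrays at 1 median 0 of the list had an unadjusted p under 0.05, and after quantile normalization 1 did.

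**Figure D4:**
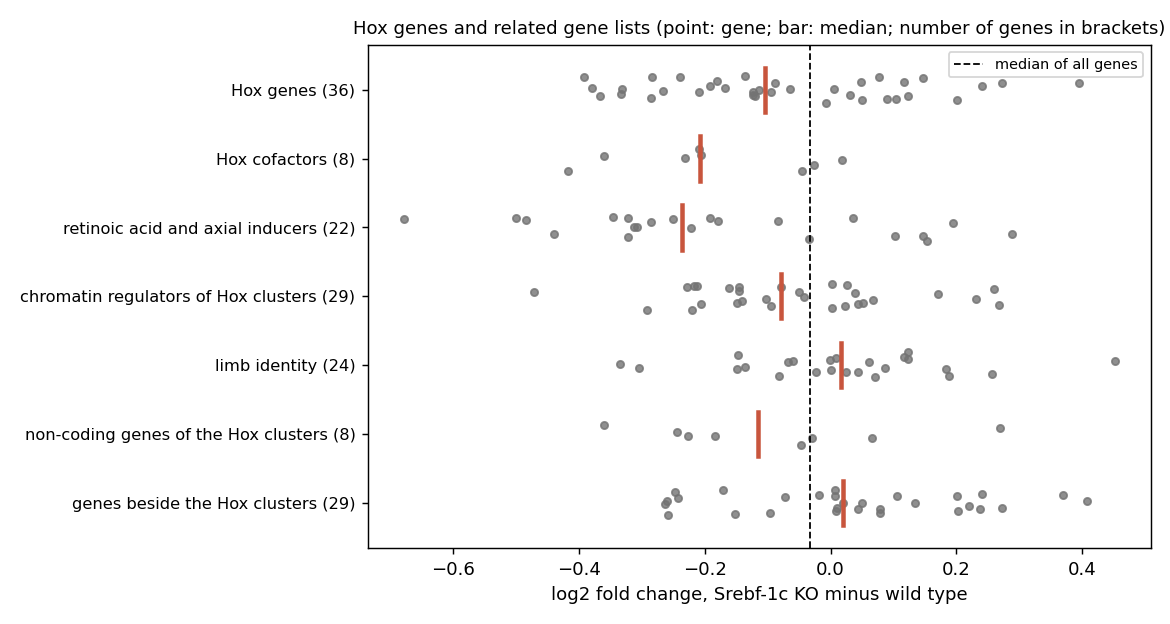
Log2 fold change, Srebf-1c KO minus wild type, of the Hox genes and of 6 related gene lists. Each point is a gene, red bars are list medians and the dashed line is the median of all genes (-0.032). The medians are -0.10 for Hox genes, -0.21 for cofactors and -0.24 for the retinoic acid list, and the points of every list overlap those of the Hox genes.

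Chromatin regulators of the Polycomb and trithorax groups keep Hox clusters silent or active after the embryo. Of 29 measured, 0 passed the adjusted test in limma and 2 had an unadjusted p under 0.05, against 5.83% of all genes. Ring1, a ubiquitin ligase of Polycomb, had 8.22, 7.94 and 8.04 on the KO arrays, against 8.64, 8.64 and 8.33 on the wild-type arrays (-0.47 ± 0.14, SE). Ctcf, which bounds chromatin domains within Hox clusters, had 9.58, 9.73 and 9.55 on the KO arrays, against 9.86, 9.92 and 9.95 on the wild-type arrays (-0.29 ± 0.11). In both genes all KO values lay below the wild-type values, as in 8.21% of all genes, and the list median was -0.079, with 17 of 29 genes at a lower mean in KO.

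Other genes of limb identity, 24 measured, had a median of 0.016 with 10 at a lower mean, and 0 passed the adjusted test in limma. Those with an unadjusted p under 0.05 were Hand2, at 0.45 ± 0.17 (SE) and below background on every array, Meox1 at -0.30 ± 0.13 and Tbx2 at -0.33 ± 0.14, the last named after its values were seen. These 3 of 24 stand against 5.83% of all genes, and the count was 1 with the replicate block, the methods' ANOVA, quantile normalization or arrays at 1 median, and 0 without wild-type replicate 1 or 2 or KO replicate 1 or 3. Genes that lie beside the clusters, of which 28 of 29 lay within 6 genes of a Hox gene in RefSeq, had a median of 0.020 with 10 at a lower mean. Among them Nfe2l3 and Cbx3, neighbours on the flank of the Hoxa cluster, stood at 0.41 ± 0.13 and 0.37 ± 0.13, with KO values all above the wild-type values in both (4.08% of all genes), and unadjusted p-values under 0.05 with a higher mean in KO (2.34% of all genes). Nfe2l3 was above background on 3 arrays only, all of them KO, so its difference is of signals at or near background. In 4 other genes of this list, Atf2, Calcoco1, Cbx1 and Snx11, all KO values lay below the wild-type values (8.21% of all genes), and these were named after their values were seen. Without KO replicate 1 or 3 the list had 0 genes at an unadjusted p under 0.05, against 3.63% and 2.82% of all genes. Another probe set of Cbx3 gave -0.047.

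Of non-coding genes of the clusters 8 were measured and 0 passed the test, adjusted or at an unadjusted p under 0.05, in limma. The list also took in Mir1955, which lies on the Hoxd chromosome outside the cluster. Whole-transcript arrays read the precursor transcript and not the mature microRNAs whose sequences are given above. Mir196a-1, beside Hoxb9, had 6.48, 6.58 and 6.44 on the KO arrays, against 6.90, 7.28 and 6.40 on the wild-type arrays (-0.36 ± 0.22, SE). Mir196a-2, beside Hoxc10, had 6.16, 6.49 and 6.58 on the KO arrays, against 5.77, 6.32 and 6.34 on the wild-type arrays (0.27 ± 0.20). Mir10a and Mir196b were not analysed here. Mir196a-1 was above background on 3 arrays and Mir196a-2 on 0, so these differences are of signals at or near background. The value of Mir196a-1 was -0.15 without wild-type replicate 2 and -0.59 without wild-type replicate 3, and without wild-type replicate 1 that of Mir196a-2 was 0.081. Mir10b was below background on every array and Mir615 was above it on 5.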

How the data were processed

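RNA of whole sciatic nerve was measured on 6 arrays, 3 of Srebf-1c KO mice and 3 of wild-type littermates. The deposited values are probe set intensities that the authors computed with RMA (background correction, normalization and summarization) in TAC and Partek software, per the series' design text, with build mm8 per the submitters' processing notes. The versions of these programs are not stated in the labels. The linear scale is inferred from the values, whose medians per array lay between 115.5 and 122.6. No depth applies to arrays, and their number limits the precision.

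Log2 was taken with no pseudocount. Of 41077 probe sets 23521 carried 1 gene symbol in the platform annotation, while 1814 carried several and 15742 carried none. By Entrez identifier, 23328 of those with 1 symbol were found in RefSeq. The brightest probe set per gene left 22180 genes. Array pairs correlated at 0.9694 to 0.9855 across probe sets and shared at most 0.117% of identical values. The difference, KO minus wild type, was tested two-sided in limma 3.58.1 under R 4.3.3 (lmFit, eBayes), with Benjamini-Hochberg adjustment over 22180 genes, and ± gives the standard error. Values per array and plots used Python 3.11.15, pandas 2.3.3, numpy 2.4.6 and matplotlib 3.10.9.

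The Hox members, the 6 gene lists and the marker lists were chosen with earlier results of these data known. Values on each array are given for the 12 brightest Hox genes, the 6 with the smallest p, Srebf1, Pitx1, Tbx4 and Tbx5, and the 2 genes with the smallest p of each list are named. Those of Hoxa5, Hoxa9, Hotair and Adipoq were added outside this rule. Settings varied were array weights, a robust prior with an intensity trend, the methods' ANOVA, the replicate block, removal of dim genes, quantile normalization, arrays at 1 median, the mean of probe sets or every probe set, other limits for calls and for the background level, vomeronasal in place of olfactory receptor genes, and leaving out each array. Same-numbered arrays of the genotypes are not linked by the labels.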

Additional observations from a re-analysis of the deposited data

How the results depend on the processing

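The count of genes past an adjusted p of 0.05, 1 with all arrays, was 0 with the replicate block, the methods' ANOVA, quantile normalization, arrays at 1 median or every probe set tested, and 0 or 1 with an array left out. The 1 gene without KO replicate 2 was not Srebf1, whose adjusted p in limma was 0.255 there. The count meeting the study's criterion, 265, was 138 with the methods' ANOVA, 150 without the dimmest 25% and 89 without the dimmest 50% of genes, 34 at a fold limit of 2 and 231 to 552 with an array left out. Hox genes with an unadjusted p under 0.05, 1 with all arrays, numbered 0 with the methods' ANOVA, quantile normalization or arrays at 1 median, 2 with array weights and 0 to 4 with an array left out. The shares of all genes were 5.83% with all arrays, 6.37% with the ANOVA, 5.42% after quantile normalization and 4.63% with arrays at 1 median. They were 7.59% with array weights and 2.82% to 7.19% with an array left out. The Hox median, -0.10, was -0.041 after quantile normalization, -0.073 with arrays at 1 median and -0.18 to -0.049 with an array left out. Over all genes the median, -0.032, was -0.0056 after quantile normalization and -0.0010 with arrays at 1 median. Hox genes above background on every array, 20, were 6 at the 99th percentile and 20 to 21 with an array left out. The cause of these shifts was not tested.

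Of 497 values of 32 named genes under alternatives, 468 kept direction and side of the threshold, 18 turned sign and 11, all of Srebf1, missed the threshold. Turned signs, none of them of a call, were Hoxc8 with array weights (-0.11), Hoxb5 at its other probe set (0.026), Hoxa7 after quantile normalization (0.035) or with arrays at 1 median (0.024) and Cbx3 at its other probe set (-0.047). With an array left out the ranges were -0.22 to 0.051 for Hoxc6, -0.42 to 0.070 for Hoxc10, -0.074 to 0.19 for Hoxc4, -0.19 to 0.19 for Hoxc8, -0.30 to 0.030 for Hoxb5, -0.13 to 0.076 for Hoxa7, -0.18 to 0.062 for Hoxb3 and -0.19 to 0.17 for Tbx5.

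Deviations of same-numbered arrays correlated at 0.06, -0.02 and -0.05, and 1 of 6 arrays correlated best with its own number. The labels do not link same-numbered arrays, and these correlations cannot show whether such arrays were paired. With the replicate block 288 genes met the study's criterion. At an unadjusted p under 0.05 there was then 1 Hox gene, Hoxd12 in place of Hoxb4, against 5.86% of all genes. Probe sets near background limit what can be said of the Hox genes at the ends of the clusters.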
